A study of Arabidopsis thaliana with 24 samples.

Results

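RCA, PRK and SBPASE are nuclear genes for 3 chloroplast proteins of the Calvin cycle, the pathway that fixes carbon dioxide into sugar. They were described over all 8 groups of a microarray study of cambium formation in stems of wild-type Arabidopsis thaliana. Their probe sets were found by gene name in the probe annotation, which gave 1 probe set for each gene: 245061_at for RCA (AT2G39730), 255720_at for PRK (AT1G32060) and 251762_at for SBPASE (AT3G55800). None of the 3 probe sets names a second gene. They are 3 of the 22746 non-control probe sets tested and 3 of the 13513 that name a single gene.

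The series had 24 arrays, 3 labelled biological replicates in each group, all from stem pieces 1.5 cm long cut 2.5 cm above the stem base. Pieces were kept on split plates of MS, a plant culture medium, with NAA, a synthetic auxin, or without it, and the central 3 mm, which did not touch the medium, was sectioned for laser capture microdissection. The starch sheath, the innermost cortical cell layer of the stem, was captured after 2 days on NAA, after 2 days on MS alone, after 5 days on MS alone and without treatment. Cells labelled cambium, the dividing layer that forms secondary vascular tissue, were captured after 5 days on NAA. Stem tissue was captured after 2 days on NAA, after 5 days on NAA and without treatment. No group of stem tissue on MS alone was analysed here, and the only 5-day interfascicular arrays with NAA are those of the cambium. At 5 days, NAA and the kind of cell captured therefore cannot be told apart between the cambium and the sheath on MS. All plants were grown for 3 weeks in short days with 8 hours of light and then moved to long days with 16 hours of light. The design asked which genes are raised in the interfascicular region where the cambium forms.

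The Calvin cycle first fixes carbon dioxide on a sugar acceptor through the enzyme Rubisco, then reduces the product and regenerates the acceptor. RCA encodes Rubisco activase, which uses ATP to release inhibitory sugar phosphates from Rubisco. SBPASE encodes sedoheptulose-bisphosphatase, which removes a phosphate from a sugar in the regeneration phase, and PRK encodes phosphoribulokinase, which makes the acceptor itself in the last step. PRK and SBPASE are switched on in the light through thioredoxin, and the small protein CP12 holds PRK inactive in the dark. Green stems carry out photosynthesis in their cortex.

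The values are log2 signals made by RMA, a method that corrects, normalises and summarises the probes of each set. They run between 1.73 and 13.51, with a median of 3.09 over all arrays, and each of the 3 genes lay above that median on 24 of 24 arrays. A level is comparable between arrays for 1 probe set, but not between probe sets. Each p-value rests on the spread among the arrays of a group, which the labels call biological replicates without saying whether the plants were separate. On 3 untreated arrays there was a narrow spread of values over probe sets (starch sheath replicates 2 and 3 and stem replicate 3, SD 0.955 to 1.08, against 1.22 to 1.57 on the other 21). The excess of the 3' over the 5' GAPDH control probe sets was 5.52 to 7.43 on the 18 cultured arrays and 3.93 to 5.50 on the 6 untreated arrays, in log2 units. The 5' probe set lay at only 2.42 to 2.90 on all arrays, under the median of 3.09. The excess therefore mainly followed the 3' signal, which ran between 6.61 and 9.98, and is no clear measure of RNA length. Of 20 fixed cell type marker genes, 1 had a named probe set, JKD, a ground tissue transcription factor gene. JKD had 3.98 ± 0.68 in the untreated starch sheath and 2.97 ± 0.16 in the untreated stem (SD, n = 3 each; limma adjusted p = 0.159), and group means of 2.74 to 3.10 in the cultured groups. It was lower than in the untreated sheath after 2 days on NAA (-0.93, adjusted p = 0.0334), in the cambium (-0.89, adjusted p = 0.0467) and after 5 days on MS (-1.15, adjusted p = 0.0165). After 2 days on MS its difference was of like size (-0.94) and just missed the threshold (limma adjusted p = 0.0505). The cultured group means of JKD lie near or under the overall median of 3.09. The part of this marker's change in the results below was not tested. The defining markers of cambium, xylem, phloem and epidermis were not measured by a named probe set here, so the label of the cambium arrays was not checked by them.

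All 3 genes had their lowest group means in the groups kept for 5 days on NAA. RCA was at 5.19 to 6.18 on those 6 arrays and at 5.98 to 8.15 on the other 18, where the lowest was a narrow array. SBPASE was at 5.37 to 6.23 on those 6 arrays and at 6.29 to 7.97 on the other 18, with no overlap. PRK was at 4.02 to 5.76 on those 6 arrays and at 4.08 to 8.68 on the other 18, and the 3 lowest values outside them were on the narrow untreated arrays. Ranked among all probe sets of the same array, RCA lay between percentiles 85.3 and 93.2 on the 6 arrays of 5 days on NAA and between 96.0 and 98.9 on the others. SBPASE lay between percentiles 90.4 and 93.3 on those 6 arrays and between 93.5 and 98.4 on the others. In both genes, every array of 5 days on NAA thus ranked the gene lower than every other array did. PRK ranked between percentiles 74.3 and 90.1 on the 6 arrays and between 77.9 and 99.0 on the others, which overlap.

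**Figure D1:**
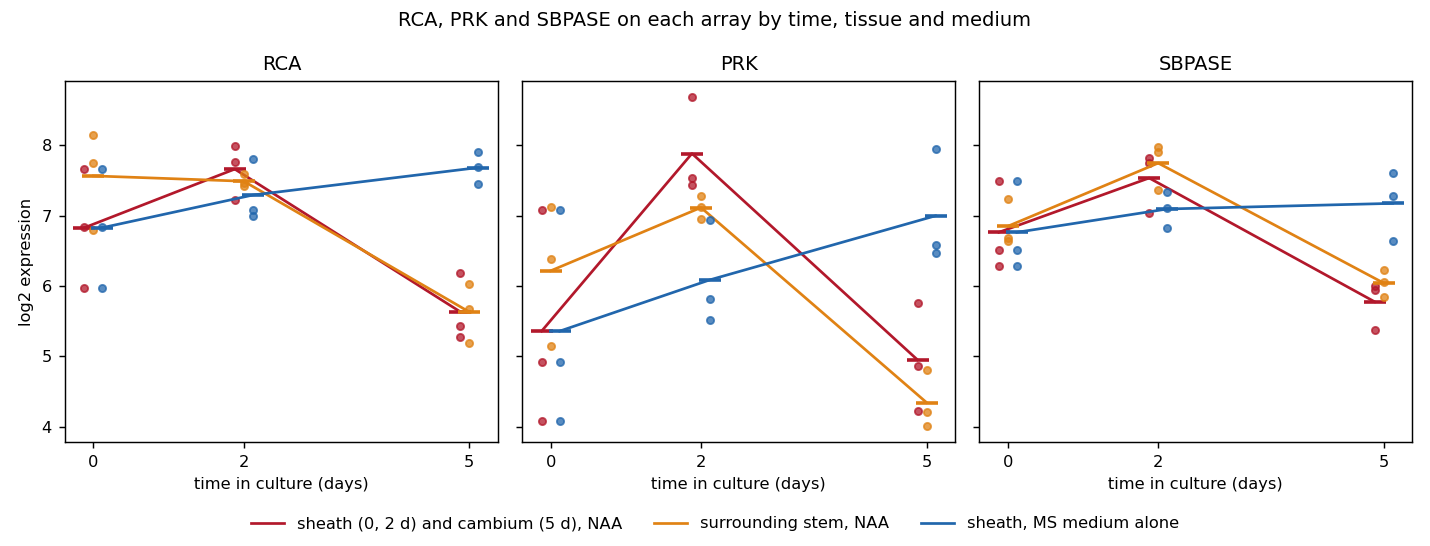
Log2 RMA signal of RCA, PRK and SBPASE (vertical axes) against days in culture (horizontal axes), with a point per array and a line through the means of 3 arrays for each tissue and treatment. The lines on NAA end at day 5 at 5.63 for RCA in both tissues, at 4.95 and 4.35 for PRK and at 5.78 and 6.04 for SBPASE in cambium and stem, below the 5-day means on MS of 7.68, 7.00 and 7.17.

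RCA, in order of its group means, had 7.68 ± 0.23 in the sheath after 5 days on MS, 7.66 ± 0.40 in the sheath after 2 days on NAA, 7.56 ± 0.70 in untreated stem and 7.49 ± 0.09 in stem after 2 days on NAA (SD, n = 3 in each group). It had 7.29 ± 0.44 in the sheath after 2 days on MS, 6.83 ± 0.84 in the untreated sheath, 5.63 ± 0.48 in the cambium and 5.63 ± 0.42 in stem after 5 days on NAA. Neighbours in this order overlapped throughout, and the widest gap, 1.20 between the untreated sheath and the cambium, came where the untreated sheath arrays were 7.67, 6.84 and 5.98. The last of these was one of the narrow arrays.

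PRK, in order of its means, had 7.88 ± 0.69 in the sheath after 2 days on NAA, 7.11 ± 0.16 in stem after 2 days on NAA, 7.00 ± 0.82 in the sheath after 5 days on MS and 6.22 ± 1.00 in untreated stem (SD, n = 3 in each group). It had 6.09 ± 0.75 in the sheath after 2 days on MS, 5.36 ± 1.54 in the untreated sheath, 4.95 ± 0.77 in the cambium and 4.35 ± 0.41 in stem after 5 days on NAA. The first pair of this order did not overlap and all other neighbours did. PRK also had the widest range of the 3 probe sets over the 24 arrays, 4.66, against 2.96 for RCA and 2.60 for SBPASE.

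SBPASE, in order of its means, had 7.75 ± 0.34 in stem after 2 days on NAA, 7.53 ± 0.43 in the sheath after 2 days on NAA, 7.17 ± 0.49 in the sheath after 5 days on MS and 7.09 ± 0.26 in the sheath after 2 days on MS (SD, n = 3 in each group). It had 6.85 ± 0.33 in untreated stem, 6.76 ± 0.64 in the untreated sheath, 6.04 ± 0.20 in stem after 5 days on NAA and 5.78 ± 0.35 in the cambium. The untreated sheath and the 5-day stem were the only neighbours that did not overlap. With quantile normalization added, which gives the narrow arrays the same spread as the rest, the untreated sheath moved up to rank 2 of 8 for RCA (mean 7.64) and rank 1 of 8 for SBPASE (mean 7.60), while both 5-day NAA groups stayed the lowest pair for each of the 3 genes.

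**Figure D2:**
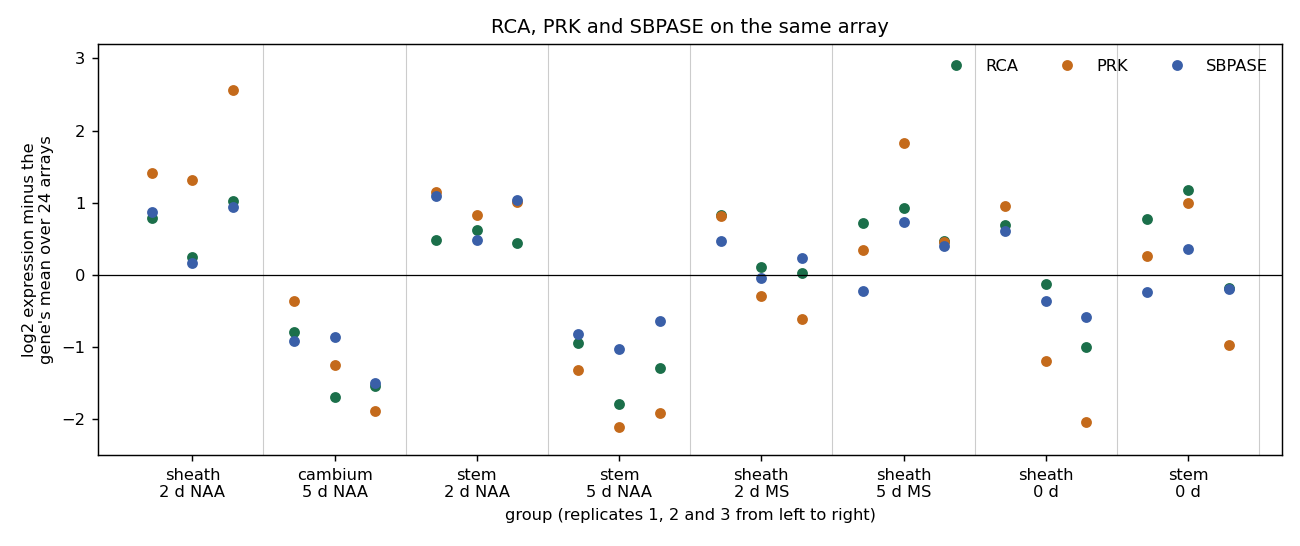
Log2 RMA signal of RCA, PRK and SBPASE minus the gene's mean over the 24 arrays (vertical axis), with a point per gene and array and replicates 1, 2 and 3 from left to right within each group. All points of the 6 arrays of 5 days on NAA lie below 0, and the 3 points of an array tend to lie high or low together, as in the untreated sheath, where PRK was at 7.08, 4.92 and 4.08 before centring.

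From day 2 to day 5 on NAA, all 3 genes fell in the interfascicular tissue, by 3.38-fold to 7.62-fold. This comparison sets the cambium at 5 days against the starch sheath at 2 days, so the time on NAA and the cells captured both differ. RCA, the activase gene, was at 6.18, 5.28 and 5.44 in the cambium and at 7.76, 7.22 and 7.99 in the sheath at 2 days. PRK was at 5.76, 4.86 and 4.23 in the cambium and at 7.53, 7.43 and 8.68 in the sheath at 2 days. SBPASE was at 5.95, 6.01 and 5.37 in the cambium and at 7.74, 7.04 and 7.82 in the sheath at 2 days. No array of the cambium reached the lowest sheath array for any of the 3 genes. The share of all probe sets whose groups do not overlap was not computed. Statements on overlap, here and elsewhere, are therefore descriptions only. RCA fell by 2.03 ± 0.39 log2 units (SE; 4.07-fold, limma adjusted p = 0.00721). PRK fell by 2.93 ± 0.65 (7.62-fold, adjusted p = 0.0229) and SBPASE fell by 1.76 ± 0.31 (3.38-fold, adjusted p = 0.00387). All 3 members were thus called lower, where 0.835% of all probe sets were called lower in this comparison. In captured tissue, fewer cells of a type and less RNA per cell cannot be told apart. With only these 2 groups in the fit none of the 3 calls held (adjusted p = 0.0762, 0.0856 and 0.0827 for RCA, PRK and SBPASE). Without sheath replicate 3 the call was lost for RCA (adjusted p = 0.0539) and PRK (0.144), and PRK also lost it without cambium replicate 2 (0.0833) or 3 (0.107).

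Stem tissue on NAA showed falls of like size between the same days, called for RCA and SBPASE. RCA was at 6.03, 5.19 and 5.68 in stem at 5 days and at 7.46, 7.59 and 7.41 in stem at 2 days. PRK was at 4.81, 4.02 and 4.21 at 5 days and at 7.27, 6.95 and 7.12 at 2 days. SBPASE was at 6.06, 5.84 and 6.23 at 5 days and at 7.97, 7.36 and 7.91 at 2 days. The groups were well apart for all 3 genes, with the lowest 2-day array above the highest 5-day array each time. RCA fell by 1.86 ± 0.39 (3.62-fold, limma adjusted p = 0.0233) and SBPASE by 1.70 ± 0.31 (3.26-fold, adjusted p = 0.00766). The PRK difference was -2.77 ± 0.65 (95% interval -4.14 to -1.40, adjusted p = 0.0531), which missed the threshold of 0.05 here and passed it under the 7 other settings (adjusted p = 0.0391 at most), but in 0 of 6 fits without an array (adjusted p = 0.087 to 0.234). So 2 of 3 members were called lower, against 0.339% of all probe sets. RCA kept its call in only 1 of 6 fits without an array, and was lost without 2-day replicate 1, 2 or 3 (adjusted p = 0.0929, 0.0626 and 0.0691) and without 5-day replicate 2 or 3 (0.154 and 0.0901). SBPASE lost it without 2-day replicate 1 (0.0589) or 5-day replicate 2 (0.0536).

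The change between these days did not differ detectably between the interfascicular tissue and the stem. The difference of the changes was -0.17 for RCA (95% interval -1.32 to 0.98), -0.16 for PRK (-2.10 to 1.78) and -0.05 for SBPASE (-0.98 to 0.87), each with an adjusted p of 1.00. In limma 0 of 3 members passed, against 0.00879% of all probe sets, and 0 had an unadjusted p under 0.05, against 2.57%.

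On MS without NAA no fall was seen between the same days. RCA was at 7.69, 7.90 and 7.45 in the sheath at 5 days and at 7.80, 7.08 and 6.99 in the sheath at 2 days. PRK was at 6.46, 7.95 and 6.58 at 5 days and at 6.93, 5.82 and 5.51 at 2 days. SBPASE was at 6.64, 7.60 and 7.27 at 5 days and at 7.34, 6.83 and 7.11 at 2 days. The groups overlapped for each gene, and each mean was higher at 5 days. The differences were 0.39 for RCA (95% interval -0.42 to 1.20), 0.91 for PRK (-0.46 to 2.28) and 0.08 for SBPASE (-0.57 to 0.73), with limma adjusted p of 0.953, 0.855 and 0.999. Thus 0 of 3 members were called, against 0.303% of all probe sets, and 0 had an unadjusted p under 0.05, against 8.19%.

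The change from day 2 to day 5 was itself lower with NAA than on MS, a difference that passed for RCA. With NAA the change runs from sheath to cambium, and on MS it stays in the sheath. NAA and the kind of cell captured therefore cannot be told apart in it. The difference was -2.42 ± 0.55 for RCA (95% interval -3.57 to -1.27, limma adjusted p = 0.039), -3.84 ± 0.92 for PRK (-5.78 to -1.90, adjusted p = 0.0526) and -1.84 ± 0.44 for SBPASE (-2.76 to -0.92, adjusted p = 0.0512). All 3 members passed at an unadjusted p under 0.05, as did 10.9% of all probe sets in either direction. After adjustment 1 of 3 passed, against 0.391% of all probe sets called lower. The RCA call was lost in 9 of the 12 fits without an array of these groups (adjusted p = 0.0596 to 0.122), and it held only without replicate 1 of the cambium, replicate 2 of the sheath on NAA or replicate 1 of the sheath at 2 days on MS. PRK passed without cambium replicate 1 (-4.24) or replicate 1 of the sheath at 2 days on MS (-4.26), and SBPASE passed without replicate 2 of the sheath on NAA (-2.08) or replicate 1 of the sheath at 5 days on MS (-2.10). Both also passed with the GAPDH covariate and without the 3 narrow arrays.

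**Figure D3:**
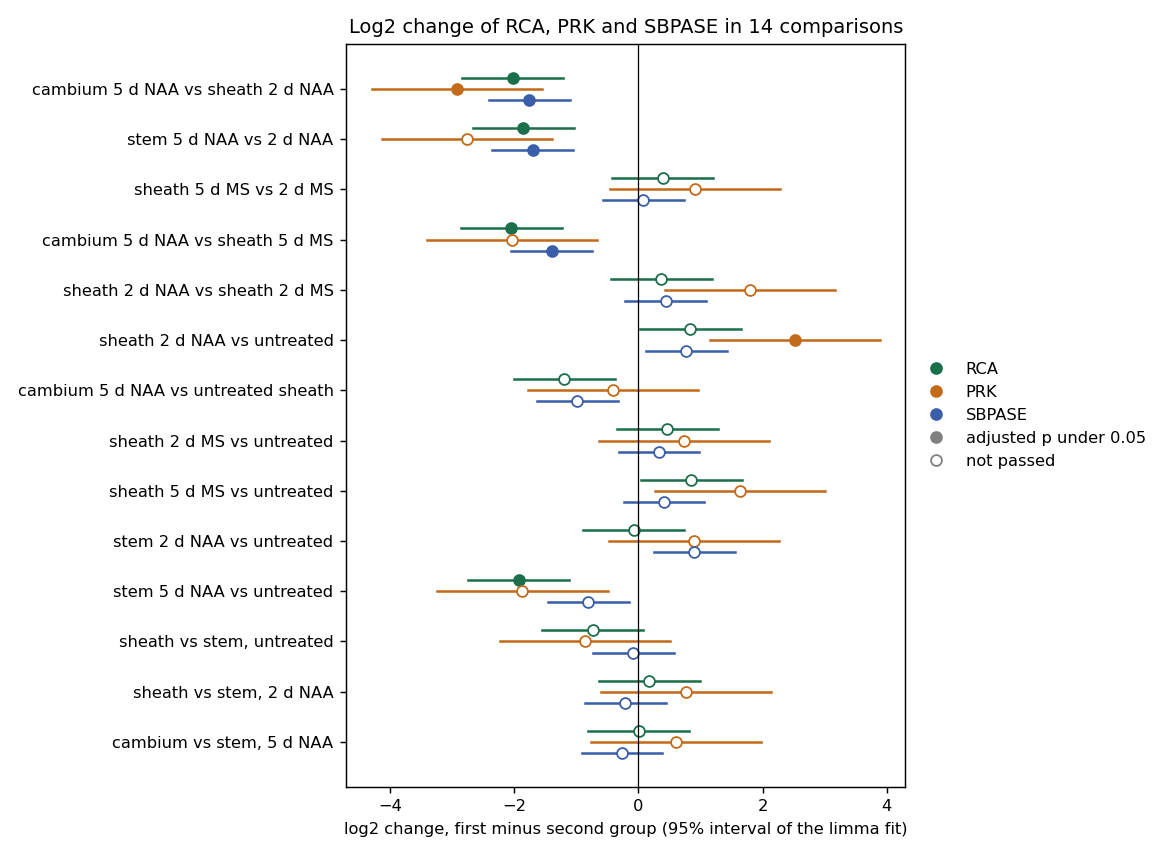
Log2 differences of RCA, PRK and SBPASE in the pair comparisons, with 95% intervals from the limma fit, and filled points for an adjusted p under 0.05. The filled points below 0 belong to groups kept for 5 days on NAA, and the single filled point above 0 is PRK in the sheath after 2 days on NAA against the untreated sheath (2.52).

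At 5 days, RCA and SBPASE were lower in the cambium on NAA than in the sheath on MS. The cambium values are those given above for all 3 genes. The cambium and MS arrays did not overlap for any of the 3 genes. RCA was lower by 4.14-fold (-2.05, 95% interval -2.86 to -1.24, limma adjusted p = 0.00407), and this call held in all 7 other settings and all 6 fits without an array. SBPASE was lower by 2.64-fold (-1.40 ± 0.31, adjusted p = 0.0139). The PRK difference was -2.05 ± 0.65 (4.13-fold, adjusted p = 0.106), and it passed with quantile normalization (-2.07) and without the 3 narrow untreated arrays (-2.05), but in 0 of 6 fits without an array of these groups (adjusted p = 0.0803 to 0.358). So 2 of 3 members were called lower, against 1.48% of all probe sets. The SBPASE call was lost with only these 2 groups in the fit (0.0687) and without cambium replicate 3 (0.0693) or sheath replicate 2 (0.087) or 3 (0.057). The GAPDH excess was 6.17 to 7.15 on the cambium arrays and 5.52 to 6.25 on the sheath arrays, and with it as a covariate the differences were -2.31 for RCA (adjusted p = 0.00736), -2.73 for PRK (0.0425) and -1.68 for SBPASE (0.0116). This comparison shares its 3 cambium arrays with the one between cambium and 2-day sheath.

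At 2 days, the sheath on NAA did not differ from the sheath on MS for RCA or SBPASE by the test used. The differences were 0.37 for RCA (adjusted p = 0.792) and 0.44 for SBPASE (adjusted p = 0.693). PRK was at 7.53, 7.43 and 8.68 on NAA and at 6.93, 5.82 and 5.51 on MS, so every NAA array lay above every MS array. Its difference was 1.79 ± 0.65 (95% interval 0.42 to 3.16, 3.47-fold), with a limma adjusted p of 0.311. In all, 0 of 3 members were called, against 0.382% of all probe sets, and 1 had an unadjusted p under 0.05, against 10.1%. The adjusted p of PRK passed with array weights, where its difference was 1.99, and with the GAPDH covariate, where it was 2.43.

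Against the untreated sheath, PRK was higher in the sheath after 2 days on NAA, and no other member was called in any of the 4 comparisons with that group. The untreated sheath arrays were 7.08, 4.92 and 4.08 for PRK, 7.67, 6.84 and 5.98 for RCA and 7.49, 6.52 and 6.29 for SBPASE, and replicates 2 and 3, the narrow ones, were the low ones each time. PRK was higher by 2.52 ± 0.65 after 2 days on NAA (5.75-fold, 95% interval 1.15 to 3.89, limma adjusted p = 0.0187). RCA differed by 0.83 (adjusted p = 0.145) and SBPASE by 0.77 (adjusted p = 0.101). This is 1 of 3 members called higher, against 7.47% of all probe sets. The PRK difference was 0.81 without the 3 narrow arrays and 0.85 (adjusted p = 0.827) with the GAPDH covariate. Its call was also lost with only the 2 groups in the fit (adjusted p = 0.198). The GAPDH excess was 3.93 to 4.83 on the untreated sheath arrays and 6.14 to 6.67 on those of 2 days on NAA. The covariate and culture are therefore hard to separate here, and with it the share of all probe sets called fell from 11.7% to 0.044%. Without untreated replicate 1, the one sheath array of normal spread, RCA and SBPASE passed as well, at 1.25 and 1.13. With quantile normalization, in contrast, they were at -0.32 and -0.39, and without the 3 narrow arrays at -0.0052 and 0.05, none of these called. The PRK call was also lost without untreated replicate 2 (0.0832) or 3 (0.113) or without NAA replicate 3 (0.0951).

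In the cambium after 5 days on NAA, RCA was at -1.20 ± 0.39 (adjusted p = 0.0626), SBPASE at -0.99 ± 0.31 (adjusted p = 0.0556) and PRK at -0.41 (adjusted p = 0.714) relative to the untreated sheath. In limma 0 of 3 members were called, against 8.58% of all probe sets, and 2 had an unadjusted p under 0.05, against 25.7%. Without the 3 narrow arrays RCA and SBPASE passed, at -2.03 and -1.71, as they did without untreated replicate 3 alone, at -1.62 and -1.23. The PRK difference turned to 0.45 without untreated replicate 1. After 2 days on MS the differences from the untreated sheath were 0.46 for RCA, 0.73 for PRK and 0.33 for SBPASE. There 0 of 3 were called in limma, against 4.94% of all probe sets, and 0 had an unadjusted p under 0.05, against 19.7%. After 5 days on MS the differences were 0.85, 1.64 and 0.41. There 0 of 3 were called, against 6.34% of all probe sets, and 2 had an unadjusted p under 0.05, against 23.9%. Without untreated replicate 1, RCA and PRK passed in the 5-day comparison, at 1.27 and 2.50. Without the narrow arrays the 5-day MS differences were 0.02 for RCA, -0.08 for PRK and -0.31 for SBPASE, and the 2-day MS differences were -0.37, -0.99 and -0.39. With quantile normalization, RCA and SBPASE were below 0 in both MS comparisons, at -0.31 and -0.47 after 2 days and at -0.04 and -0.48 after 5 days.

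In stem tissue, RCA was lower after 5 days on NAA than in untreated stem. It was at 6.03, 5.19 and 5.68 after 5 days and at 7.75, 8.15 and 6.79 in untreated stem, a difference of -1.93 (3.82-fold, 95% interval -2.75 to -1.12, limma adjusted p = 0.00694). PRK was at 4.81, 4.02 and 4.21 after 5 days and at 6.38, 7.12 and 5.14 in untreated stem, and SBPASE was at 6.06, 5.84 and 6.23 after 5 days and at 6.64, 7.23 and 6.68 in untreated stem. No gene's groups overlapped. The differences of PRK (-1.87, adjusted p = 0.138) and SBPASE (-0.81, adjusted p = 0.191) did not pass here (both passed with array weights, at -2.64 and -1.12), so 1 of 3 members was called lower, against 1.63% of all probe sets. The RCA call held in all 6 fits without an array and was lost with only these 2 groups in the fit (0.0791). After 2 days on NAA the stem differed from untreated stem by -0.08 for RCA, 0.90 for PRK and 0.90 for SBPASE (adjusted p = 0.956, 0.574 and 0.14). In limma 0 of 3 were called, against 3.23% of all probe sets, and 1 had an unadjusted p under 0.05, against 15.02%.

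None of the 3 genes was called between the starch sheath or cambium and the stem tissue at any stage, although the PRK arrays of sheath and stem after 2 days on NAA did not overlap (7.53, 7.43 and 8.68 in sheath, 7.27, 6.95 and 7.12 in stem). Untreated, the sheath minus stem difference was -0.74 for RCA (95% interval -1.55 to 0.08), -0.86 for PRK (-2.23 to 0.51) and -0.09 for SBPASE (-0.74 to 0.56), and 0.202% of all probe sets were called. After 2 days on NAA it was 0.17 for RCA (-0.64 to 0.99), 0.77 for PRK (-0.60 to 2.14) and -0.21 for SBPASE (-0.86 to 0.44), and 0.246% of all probe sets were called. After 5 days on NAA, cambium minus stem was 0.00 for RCA (-0.81 to 0.82), 0.61 for PRK (-0.76 to 1.98) and -0.27 for SBPASE (-0.92 to 0.39), and 0.356% of all probe sets were called. In each of these, limma called 0 of 3 members. At an unadjusted p under 0.05 there were also 0, against 13.8%, 4.51% and 5.28% of all probe sets in turn. The intervals, however, leave room for differences of more than 1 log2 unit in PRK. The change from untreated to NAA culture also gave 0 of 3 calls when compared between sheath and stem, at 2 days (0.91, 1.62 and -0.13 for RCA, PRK and SBPASE, with 0.00879% of all probe sets called) and with the cambium at 5 days (0.74, 1.46 and -0.18, with 0.0308% called). Both had 0 members at an unadjusted p under 0.05 in limma, against 6.16% of all probe sets at 2 days and 9.08% at 5 days. With array weights, however, the untreated sheath was called lower than untreated stem for RCA (-1.36) and PRK (-2.05), and the culture differences between tissues were called for RCA (1.58 and 1.75 at 2 and 5 days) and PRK (2.88 and 3.26). RCA was also called lower in the untreated sheath than in the stem without sheath replicate 1 (-1.15). Without the 3 narrow arrays the untreated differences were instead -0.29 for RCA, 0.32 for PRK and 0.55 for SBPASE, none called, so the sign turned for PRK and SBPASE. With quantile normalization SBPASE was at 0.58 between the untreated tissues, and with the GAPDH covariate at 0.18. Its sign also turned there without sheath replicate 2 (0.04) or 3 (0.15) or stem replicate 2 (0.11).

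Over the 14 pair comparisons there were 42 tests of the 3 genes, of which 8 were called lower, 1 was called higher and 33 did not pass. RCA was called lower in 4 comparisons, SBPASE lower in 3, and PRK lower in 1 and higher in 1. Each of the 8 lower calls was of a group kept for 5 days on NAA. These calls reuse the same 6 arrays for 3 genes that moved together, so they are not 8 separate results. The share of all probe sets called is given above for each comparison.

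Of 60 fixed genes of carbon fixation, its regulation and photorespiration, 16 had a named probe set, and these include the 3 members. The lists gave 1 of 5 genes of Rubisco subunits, 5 of 10 of Rubisco activation and assembly, 1 of 5 of the reduction phase, 3 of 12 of the regeneration phase, 3 of 11 of CP12 and thioredoxins, 3 of 12 of photorespiration and 0 of 5 of chloroplast gene regulators. Between cambium at 5 days and sheath at 2 days on NAA, 0 of the 10 other Calvin cycle and regulator genes were called higher and 1 was called lower, where 0.835% of all probe sets were called lower, and their median difference was -0.96 against 0.03 over all probe sets. The gene called was ATHM2, for a chloroplast thioredoxin of the m type, at 6.72, 6.39 and 5.84 in the cambium and at 7.72, 7.69 and 7.84 in the sheath (-1.43 ± 0.29, limma adjusted p = 0.0116). Among the genes on the Rubisco activation and assembly list, Cpn60beta2, a chloroplast chaperonin subunit gene, differed by -1.43, AT3G04550 by -1.40, AT5G28500 by -1.12 and AT3G47650 by -0.99, with adjusted p of 0.119 to 0.332. AT2G04700 of the thioredoxin list differed by -0.94, AT5G64380 of the regeneration list by -0.61, AT1G56190 of the reduction list by -0.37 and rbcL, the plastid gene for the large subunit of Rubisco, by -0.22, with adjusted p of 0.205 to 0.967. The 10th gene, TRXF2, for a thioredoxin of the f type, has the lowest mean level of the 10 and is named after its values were seen. It was the only one of the 10 with a positive difference (0.14, adjusted p = 0.973).

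In stem, 5 against 2 days on NAA, 0 of these 10 genes were called in limma, against 0.857% of all probe sets in either direction, and their median difference was -0.66 against 0.03 over all probe sets. Between cambium and sheath on MS at 5 days, 0 of 10 were called, against 3.49% of all probe sets in either direction, with a median of -0.63 against 0.01. With shares of this size, no call among 10 genes says little about them. On MS, 5 against 2 days, 0 of 10 were called, against 0.303% of all probe sets, and their median was -0.02, as was that of all probe sets. HPR, the peroxisomal hydroxypyruvate reductase gene of photorespiration, is named here after its values were seen. It was at 6.18, 5.54 and 4.37 in the cambium and at 7.30, 8.13 and 7.72 in the sheath on MS at 5 days (-2.36 ± 0.53, adjusted p = 0.0158). It was 1 of 3 measured photorespiration genes called lower there, against 1.48% of all probe sets. The other 2 did not pass (AT1G11860 at -0.60, adjusted p = 0.905, and AT1G80380 at -0.75, adjusted p = 0.321). The change of HPR between days 2 and 5 also differed between NAA, from sheath to cambium, and MS, within the sheath (-3.82 ± 0.75, adjusted p = 0.0181). This joins a fall with NAA (-1.85, limma adjusted p = 0.0866) and a rise on MS (1.98, adjusted p = 0.137), neither of which passed. HPR was 1 of 3 photorespiration genes called lower in this difference, against 0.391% of all probe sets.

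**Figure D4:**
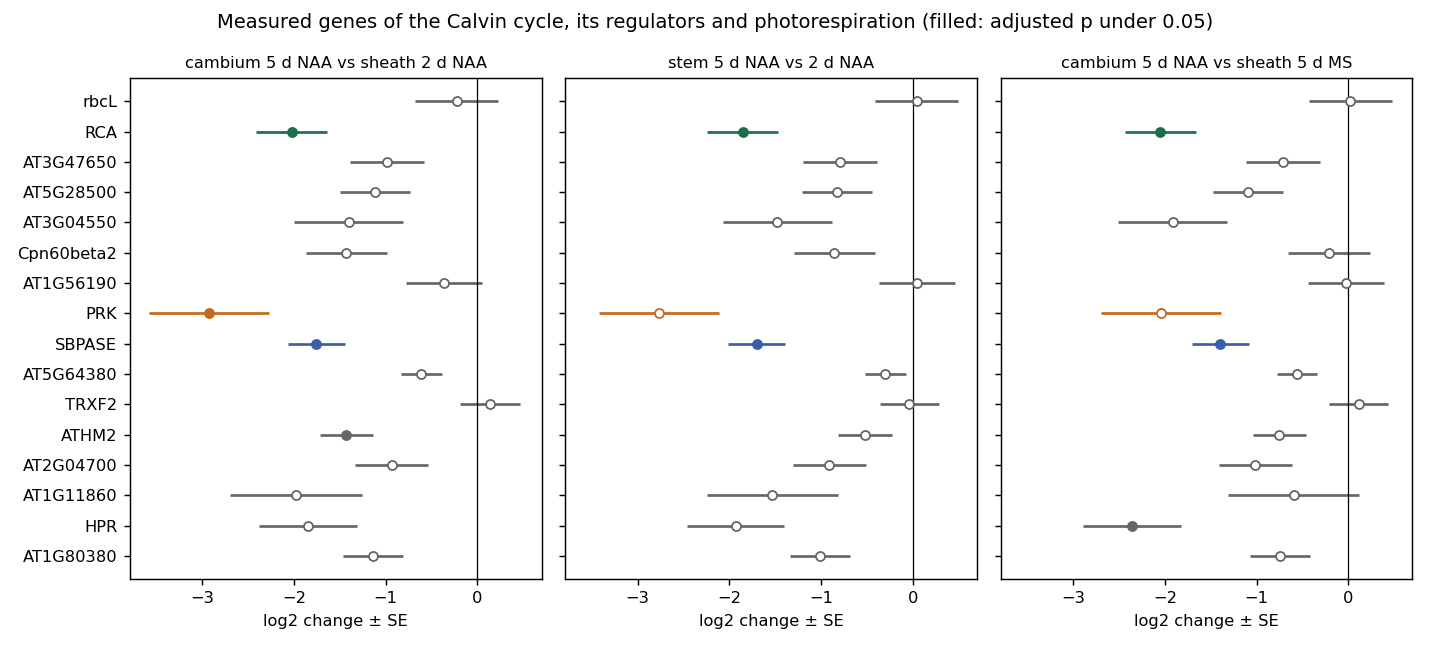
Log2 differences of the 16 measured genes of the carbon fixation and photorespiration lists in 3 comparisons, with lines of 1 SE to each side and filled points for a limma adjusted p under 0.05. RCA, PRK and SBPASE lie at -1.40 to -2.93, while rbcL lies at -0.22 to 0.04. The mean of rbcL over all arrays, 3.56, is near the overall median of 3.09, so a fall of rbcL may not show.

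Against the untreated sheath, genes of the same lists were higher after 2 days on NAA in 4 of 10 cases, against 7.47% of all probe sets called higher, with a median difference of 0.89 against -0.11 over all probe sets. These were Cpn60beta2 (3.92, adjusted p = 5.01e-05), AT1G56190 (1.88, 0.00721), AT3G47650 (1.63, 0.0148) and ATHM2 (1.03, 0.0293). With photorespiration included it was 6 of 13, through HPR (2.22, adjusted p = 0.0125) and AT1G80380 (1.43, adjusted p = 0.00951). After 2 days on MS alone, 3 of the 10 were called higher too, Cpn60beta2 (4.39), AT3G47650 (2.05) and AT1G56190 (1.56). The median there was 0.73 against -0.07, and 4.94% of all probe sets were called in either direction. Between NAA and MS at 2 days, 0 of the 10 were called, against 0.382% of all probe sets, with a median of 0.02 against -0.06. Cpn60beta2 was at 6.46, 6.48 and 7.37 after 2 days on NAA and at 3.40, 2.33 and 2.82 in the untreated sheath, and it was called higher than the untreated group of its tissue in all 6 culture comparisons. RCA and SBPASE were called higher in none of these 6. The narrow arrays are part of each such comparison.

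The 3 genes moved together from array to array. Over the 24 arrays, Pearson's r was 0.89 between RCA and PRK, 0.85 between RCA and SBPASE and 0.87 between PRK and SBPASE, and over the 8 group means it was 0.89, 0.91 and 0.90. With group means removed it was 0.90, 0.63 and 0.79, so replicates of a group differed in the same direction for these genes. The arrays share their scale and depth of labelling, and the members also followed the spread of values of the array within groups (r = 0.60 for RCA, 0.73 for PRK and 0.53 for SBPASE), whose part in the likeness was not tested. Among 13512 other probe sets with 1 named gene, the 5 most like RCA over the 24 arrays were ATPC1 (r = 0.90), PSAE-1 (0.90), AT1G51110 (0.89), PRK (0.89) and ATAB2 (0.87), and SBPASE ranked 10. The 5 most like PRK were AT4G01150 (0.92), PSB27 (0.89), RCA (0.89), ATPC1 (0.89) and HCF101 (0.88), with SBPASE at rank 9. The 5 most like SBPASE were AT1G07440 (0.91), AT1G51110 (0.89), PRK (0.87), AT2G29320 (0.87) and AT3G48420 (0.87), with RCA at rank 8.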

How the data were processed

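The deposited values were log2 signals from 24 Affymetrix ATH1 arrays, made by the authors with RMA, per the submitters' processing notes, which also name limma and give no version. The log2 base was taken from RMA's usual output. RNA was amplified over several rounds before labelling, per the labels' protocols. Of 22810 probe sets, 64 controls were left out, which left 22746: 13513 name 1 gene, 503 several and 8730 none. No further scaling was done. Fold changes were computed in limma 3.58.1 (R 4.3.3) with 1 mean per group over all 24 arrays, eBayes and Benjamini-Hochberg adjustment over all 22746, two-sided, at a threshold of 0.05. The 14 pair comparisons and 4 differences of differences were fitted, and the fit was tested on simulated data. Array number limits the precision. Groups came from the labels, which give no batch.

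The alternatives were a fit of the compared groups only, the replicate number as a block, dropping dim probe sets (no group mean above 3.09), quantile normalization, array weights, the GAPDH 3' minus 5' excess as a covariate, leaving out the 3 narrow arrays, and leaving out each array in turn. Same-numbered arrays deviated together, with each correlation over 0.1, only in sheath and stem after 2 days on NAA (0.146, 0.561 and 0.383 for replicates 1 to 3); no member was called there with or without the block. The genes named are RCA, PRK and SBPASE, the measured Calvin cycle list genes up to 12 by mean level, and for each member the 5 probe sets most like it. The members and lists were chosen with earlier results of these data known, so they give no independent support.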

Additional observations from a re-analysis of the deposited data

Results flagged for a closer look

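The change of RCA between 2 and 5 days differed between NAA and MS by -2.42 log2 units (limma adjusted p = 0.039), being a fall with NAA (-2.03, cambium against sheath) and 0.39 on MS, which did not pass. This call was kept in only 3 of 12 fits without an array. PRK (-3.84, adjusted p = 0.0526) and SBPASE (-1.84, adjusted p = 0.0512) just missed the threshold, so the flag does not set RCA apart from them. The MS change stays in the sheath, so NAA and the kind of cell captured cannot be told apart. Groups of 3 arrays are too small for the search for single outlying arrays, so none was made.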

How the results depend on the processing

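No result called for RCA, PRK or SBPASE changed sign under any alternative run. RCA in the cambium against the sheath on MS (5 days) kept its call in all 7 other settings and all 6 fits without an array. The sign changes below are of differences with an adjusted p above the threshold both as reported and under the alternative. Unless a value shows it, the cause of a change was not tested.

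With only the compared groups in the fit, which has fewer arrays, calls were lost for SBPASE in the cambium against MS (-1.40), PRK in the sheath after 2 days on NAA against untreated (2.52), RCA, PRK and SBPASE in the cambium against the sheath after 2 days on NAA (-2.03, -2.93 and -1.76) and RCA in stem after 5 days on NAA against untreated (-1.93). PRK then passed in stem 5 against 2 days on NAA (-2.77) and in the difference of the day 2 to 5 change between NAA and MS (-3.84).

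With the replicate number as a block, RCA passed in the cambium against the untreated sheath (-1.20, adjusted p = 0.0354), and PRK passed in stem 5 against 2 days (-2.77, adjusted p = 0.0391) and in the NAA by day difference (-3.84, adjusted p = 0.0399). The block changed no other call.

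Without dim probe sets, which leaves fewer tests, RCA (-1.20) and SBPASE (-0.99) passed in the cambium against the untreated sheath, PRK in stem 5 against 2 days (-2.77), and PRK (-3.84) and SBPASE (-1.84) in the NAA by day difference.

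With quantile normalization, PRK passed in the cambium against MS (-2.07), in stem 5 days against untreated (-1.88), in stem 5 against 2 days (-2.38) and in the NAA by day difference (-3.49), and RCA (-2.07) and SBPASE (-1.89) passed in the cambium against the untreated sheath. Signs turned for RCA in the sheath after 2 days on NAA against MS (-0.0092), SBPASE in the untreated sheath against stem (0.58), RCA in the cambium against stem (-0.050), and SBPASE in 5 against 2 days on MS (-0.015). Against the untreated sheath they turned for RCA and SBPASE after 2 days on NAA (-0.32 and -0.39), 2 days on MS (-0.31 and -0.47) and 5 days on MS (-0.042 and -0.48).

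With array weights, PRK passed in the sheath after 2 days on NAA against MS (1.99), in 5 days on MS against untreated (1.86), in stem 5 days against untreated (-2.64), in stem 5 against 2 days (-2.83) and in the NAA by day difference (-3.23). SBPASE passed in 2 days on NAA against untreated in sheath (1.01) and stem (0.64), in stem 5 days against untreated (-1.12) and in the NAA by day difference (-1.59). RCA and PRK passed in the untreated sheath against stem (-1.36 and -2.05) and in the tissue by culture differences at 2 days (1.58 and 2.88) and 5 days (1.75 and 3.26). Signs turned for PRK in the cambium against the untreated sheath (0.62), SBPASE in 5 against 2 days on MS (-0.057), RCA, PRK and SBPASE in the tissue by day difference (0.17, 0.38 and 0.11) and SBPASE in the tissue by culture differences (0.37 at 2 days and 0.48 at 5 days).

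With the GAPDH covariate, PRK lost its call in the sheath after 2 days on NAA against untreated (0.85) and passed in the sheath after 2 days on NAA against MS (2.43), in the cambium against MS (-2.73), in stem 5 against 2 days (-2.97) and in the NAA by day difference (-5.16), as did SBPASE in that difference (-2.38). Signs turned for SBPASE in the untreated sheath against stem (0.18), RCA, PRK and SBPASE in 2 days on MS against untreated (-0.41, -1.58 and -0.61), SBPASE in 5 days on MS against untreated (-0.079) and PRK in stem 2 days against untreated (-0.30). The GAPDH excess did not overlap between untreated and cultured arrays, so this covariate and culture are hard to separate in comparisons of cultured with untreated groups.

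Without the 3 narrow arrays, PRK lost its call in the sheath after 2 days on NAA against untreated (0.81) and passed in the cambium against MS (-2.05), stem 5 days against untreated (-2.41), stem 5 against 2 days (-2.77) and the NAA by day difference (-3.84). SBPASE passed in that difference (-1.84), and RCA and SBPASE in the cambium against the untreated sheath (-2.03 and -1.71). Signs turned for PRK and SBPASE in the untreated sheath against stem (0.32 and 0.55), RCA in 2 days on NAA against untreated (-0.0052), RCA, PRK and SBPASE in 2 days on MS against untreated (-0.37, -0.99 and -0.39), and PRK and SBPASE in 5 days on MS against untreated (-0.079 and -0.31).

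Leaving out an array in turn changed a call or a sign in these comparisons, with the range of differences over the fits. The ranges were found in untreated sheath against stem (RCA -1.15 to -0.31, SBPASE -0.45 to 0.15), sheath 2 days NAA against untreated (RCA 0.41 to 1.25, PRK 1.88 to 3.38, SBPASE 0.53 to 1.13), cambium against untreated sheath (RCA -1.62 to -0.78, PRK -1.05 to 0.45, SBPASE -1.23 to -0.63), 5 days MS against untreated (RCA 0.43 to 1.27, PRK 1.00 to 2.50) and the tissue by 2-day culture difference (SBPASE -0.36 to 0.24). They were found as well in the tissue by 5-day culture difference (SBPASE -0.42 to 0.18), stem 2 days NAA against untreated (RCA -0.46 to 0.22), sheath against stem at 2 days (SBPASE -0.40 to 0.034), cambium against sheath 2 days NAA (RCA -2.30 to -1.85, PRK -3.33 to -2.53) and the tissue by day difference (RCA -0.44 to 0.030, PRK -0.57 to 0.24, SBPASE -0.30 to 0.15). The rest were in the NAA by day difference (RCA -2.69 to -2.24, PRK -4.26 to -3.37, SBPASE -2.10 to -1.62), stem 5 against 2 days NAA (RCA -2.06 to -1.63, SBPASE -1.90 to -1.59), 5 against 2 days MS (SBPASE -0.13 to 0.34), the cambium against MS (SBPASE -1.66 to -1.18) and cambium against stem (RCA -0.27 to 0.20).

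The percent of all probe sets called, with its lowest and highest value over these settings, was sheath 2 days NAA against MS 0.382% (0.00879% to 7.83%), the cambium against MS 3.49% (1.78% to 15.1%), untreated sheath against stem 0.202% (0% to 19.8%), sheath against stem at 2 days 0.246% (0.044% to 0.787%), cambium against stem 0.356% (0.022% to 2.86%), sheath 2 days NAA against untreated 11.7% (0.044% to 36%), cambium against untreated sheath 8.58% (0.488% to 31%), cambium against sheath 2 days NAA 2.02% (0.255% to 7.74%) and 2 days MS against untreated 4.94% (0.677% to 19.2%). It was 5 days MS against untreated 6.34% (0.998% to 24.7%), 5 against 2 days MS 0.303% (0.0791% to 3.16%), stem 2 days NAA against untreated 3.23% (0.202% to 20.7%), stem 5 days NAA against untreated 4% (1.79% to 20%), stem 5 against 2 days NAA 0.857% (0.431% to 4.86%), the tissue by day difference 0.00879% (0% to 0.215%), the NAA by day difference 1.01% (0.374% to 6.24%), the tissue by 2-day culture difference 0.00879% (0% to 7.16%) and the tissue by 5-day culture difference 0.0308% (0% to 19.3%).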
